A study of Mus musculus with 6 samples.

Results

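In all, 10 liver transcripts of the insulin and FoxO pathway were followed here: Insr, Irs1, Irs2, Pik3r1, Akt1, Akt2, Foxo1, Foxo3, Igfbp1 and Sesn1. They were chosen by name as the rows of the deposited expression table that carry these gene symbols. Each symbol had 1 row, so the set comprised 10 of the 28880 genes in the table, and all 10 passed the filter on low counts that left 16717 genes for testing.

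The study concerns liver injury after acute alcohol. Transcripts of whole liver were sequenced in bulk, 1 library a mouse, for 3 mice given ethanol and 3 controls. All were wild-type male C57BL/6J mice of 6 to 8 weeks. The ethanol mice were fasted for 12 h and then received 50% (v/v) ethanol at 6 g/kg as 1 oral gavage, and their livers were collected 24 h after it. Control mice received no ethanol. Neither the labels nor the methods say whether control mice were fasted or given a vehicle, so the effects of ethanol, of the fast and of the gavage cannot be told apart. This bears directly on the genes described here, since the pathway responds to feeding. The labels place all 6 libraries in batch 1, and each library is labelled as a separate mouse.

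In hepatocytes, insulin binds its receptor, which phosphorylates the adaptors IRS1 and IRS2. These recruit phosphoinositide 3-kinase (PI3K), whose lipid product activates the AKT kinases. AKT phosphorylates the FoxO transcription factors and keeps them out of the nucleus, so that genes such as Igfbp1, which FoxO proteins activate during fasting, are turned off after a meal. Most of this control acts on proteins by phosphorylation, and only transcript levels were measured here.

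Total counts ranged from 60514417 to 74210869 per library. Counts are given below as CPM, the count scaled to a library of fixed size, after trimmed-mean (TMM) scaling, whose factors were 0.768 to 0.836 in ethanol libraries and 1.26 to 1.27 in control libraries. Levels of different genes are compared by the deposited FPKM, which is set per transcript length and is not rescaled by TMM. Across the genes tested, the median log2 fold change was -0.04 with TMM scaling and -0.71 with library size alone, so the direction of a small difference depended on the scaling. Ethanol replicate 3 stood apart from ethanol replicates 1 and 2, being lowest of the 3 for 6540 and highest for 6765 of the 16717 genes. For the 10 genes it was lowest for 5 and highest for 5. Liver identity was checked on 8 hepatocyte markers, whose summed level was 145200 to 149800 CPM in ethanol and 78180 to 90330 CPM in control libraries. Of the 8, 3 passed both thresholds upwards, beside 10.4% of all genes. These sums carry the TMM factors, which raise ethanol libraries relative to controls, so the size of this difference depended on the scaling. In bulk liver, fewer cells of a type and less RNA per cell cannot be told apart. Neutrophil markers were low, summing to 1.77 to 10.9 CPM in ethanol and 0.118 to 0.330 CPM in control libraries. Of the 4, Ly6g averaged 0.055 CPM in ethanol and 0 CPM in control libraries and was not tested. The 3 tested were all higher past both thresholds, beside 10.4% of all genes. Erythroid markers summed to 403 to 600 CPM against 142 to 175 CPM, with 2 of the 3 tested higher past both thresholds. The part of these cells in the results below was not tested.

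Promoter sequences are shown for the 4 genes whose transcripts rose, Igfbp1, Foxo1, Sesn1 and Pik3r1, because FoxO factors are known to bind short elements in promoters of insulin-repressed genes. They are RefSeq windows of the GRCm38.p6 build, from 250 bases before to 50 bases after an annotated start, matched by symbol. The gene positions given further below are those of the deposited table, which did not match this build. The windows cannot be placed relative to those positions. Windows were found for 9 of the 10 genes, 15 in all, with several starts for some genes. Capitals mark matches to GTAAACA, the core of the element that FoxO factors bind, or to CAAAACA, the core of the insulin response element, on either strand, where they read TGTTTAC and TGTTTTG. The windows are Igfbp1 at chr11:7197537-7197836 (plus strand), Foxo1 at chr3:52268087-52268386 (plus strand), the first of 2 Sesn1 starts at chr10:41810324-41810623 (plus strand), and the first of 2 Pik3r1 starts at chr13:101768168-101768467 (minus strand).
Igfbp1: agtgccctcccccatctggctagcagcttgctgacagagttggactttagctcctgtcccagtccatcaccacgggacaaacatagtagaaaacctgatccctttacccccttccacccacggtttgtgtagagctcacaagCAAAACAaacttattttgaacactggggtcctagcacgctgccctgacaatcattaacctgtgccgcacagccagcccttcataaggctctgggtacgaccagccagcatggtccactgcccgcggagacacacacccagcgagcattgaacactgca
Foxo1: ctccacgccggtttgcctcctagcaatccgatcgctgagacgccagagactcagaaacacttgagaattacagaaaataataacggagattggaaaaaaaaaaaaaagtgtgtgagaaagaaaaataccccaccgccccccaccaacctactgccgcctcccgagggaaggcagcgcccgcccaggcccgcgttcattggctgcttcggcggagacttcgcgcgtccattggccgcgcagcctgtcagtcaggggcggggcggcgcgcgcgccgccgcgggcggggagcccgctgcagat
Sesn1: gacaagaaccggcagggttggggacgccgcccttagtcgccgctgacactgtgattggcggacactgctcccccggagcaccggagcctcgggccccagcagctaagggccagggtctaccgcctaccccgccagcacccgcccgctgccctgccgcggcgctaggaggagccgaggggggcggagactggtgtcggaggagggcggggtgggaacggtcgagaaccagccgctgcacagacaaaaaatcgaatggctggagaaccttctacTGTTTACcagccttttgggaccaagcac
Pik3r1: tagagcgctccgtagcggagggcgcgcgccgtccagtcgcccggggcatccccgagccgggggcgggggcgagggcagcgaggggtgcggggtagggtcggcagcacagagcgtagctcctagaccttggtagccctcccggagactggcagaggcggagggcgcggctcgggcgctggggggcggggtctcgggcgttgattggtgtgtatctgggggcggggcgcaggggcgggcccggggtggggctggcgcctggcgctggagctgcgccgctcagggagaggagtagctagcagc

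The Igfbp1 window held 1 CAAAACA match, at its bases 143 to 149. The Sesn1 window held 1 GTAAACA match on the minus strand, at its bases 273 to 279, just after the annotated start. The Foxo1 window and both Pik3r1 windows held neither motif, which says only that these letters are absent from these windows. Of the other genes, Irs1 held CAAAACA matches on the minus strand at bases 140 to 146 and 219 to 225, Irs2 held 1 at bases 214 to 220, and the first of 2 Akt1 windows held a GTAAACA match at bases 90 to 96. In all, 2 of the 9 genes held GTAAACA and 3 held CAAAACA in at least 1 window, beside 4.05% and 7.20% of the 27025 genes with windows, and no window of these genes held both. By window, 2 of the 15 held GTAAACA and 3 held CAAAACA. Over the 32851 mouse promoter windows of this length, 3.65% held GTAAACA and 6.28% held CAAAACA, and 9.63% held either. These matches are descriptions of the sequence, and binding was not measured.

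Of the 10 genes, 4 rose and none fell past both thresholds of the study, with the adjusted p below 0.05 and the log2 fold change more than 1 from 0. Over all genes tested, 10.4% rose and 13.8% fell past both thresholds. By the adjusted p alone, 4 rose and 1, Akt2, fell, where 21.5% of all genes were higher and 21.5% lower by the same rule. The other 5, Insr, Irs1, Irs2, Akt1 and Foxo3, did not pass. The median log2 fold change of the 10 genes was 0.66 against -0.04 over all genes tested. With library size alone, 2 of the 10 passed both thresholds upwards and 1, Akt2, downwards, beside 5.06% and 32.2% of all genes, and on log2(FPKM + 1) by limma 1 passed upwards and none downwards, beside 2.44% and 10.2%. With the trend of fold change with transcript length removed, 6 were higher and none lower by the adjusted p alone, beside 23.9% and 18.0%. The groups did not overlap in CPM for 6 of the 10 genes, as was true for 59.0% of the genes tested.

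**Figure D1:**
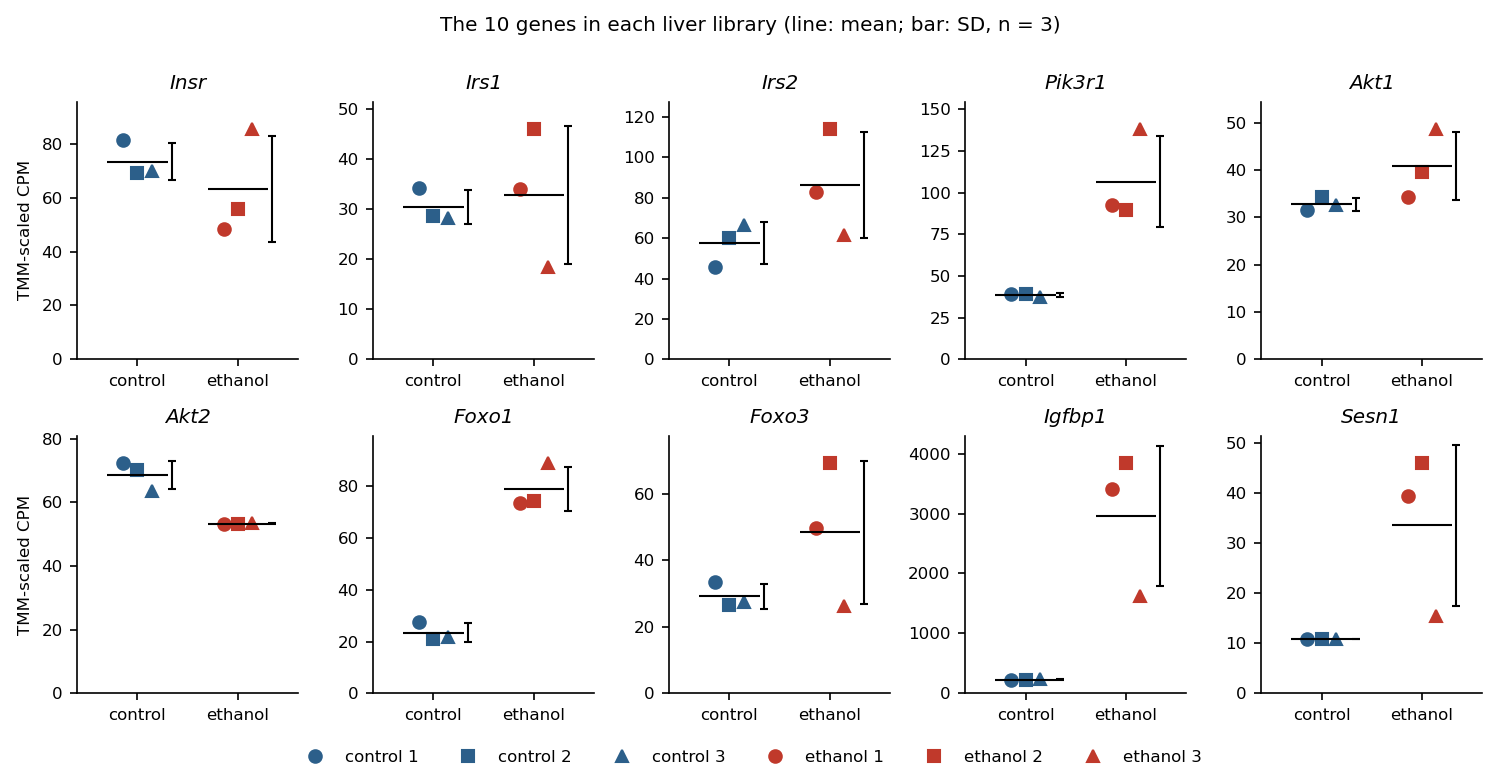
TMM-scaled CPM (vertical axis, linear from 0) of each of the 10 genes in the 3 control libraries (blue) and the 3 ethanol libraries (red), with the marker shape giving the replicate number, the line the mean and the bar the SD. Igfbp1, Foxo1, Sesn1 and Pik3r1 lie higher in every ethanol library than in any control library, and ethanol replicate 3 (red triangle) is the lowest ethanol library for Irs1, Irs2, Foxo3, Igfbp1 and Sesn1.

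Insr encodes the insulin receptor, the tyrosine kinase that starts the cascade (ENSMUSG00000005534, chromosome 8, 3172061 to 3329617, minus strand). It measured 48.5, 55.9 and 85.5 CPM in ethanol replicates 1, 2 and 3 and 81.3, 69.3 and 69.8 CPM in control replicates 1, 2 and 3. Ethanol replicates 1 and 2 lay below every control library and ethanol replicate 3 lay above every one. The log2 fold change was -0.21 ± 0.21 (SE, 95% interval -0.71 to 0.28), which did not pass (edgeR's quasi-likelihood test, adjusted p = 0.442). Without ethanol replicate 3 it was -0.48 (edgeR, adjusted p = 0.00603). It also passed the adjusted p with library size alone, at -0.89 (edgeR, adjusted p = 0.00846), and by limma on log2(FPKM + 1), at -0.75 (limma, adjusted p = 0.00763). On the FPKM scale the groups did not overlap, at 3.40 ± 0.970 in ethanol and 6.30 ± 0.603 in control libraries (SD, n = 3), so the size of this difference depended on the scaling.

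Irs1 and Irs2 encode the main adaptors that dock to the activated receptor, of which Irs2 is itself repressed by insulin in liver. Irs1 (ENSMUSG00000055980, chromosome 1, 82210822 to 82269137, minus strand) measured 34.0, 45.9 and 18.5 CPM in ethanol and 34.3, 28.6 and 28.2 CPM in control libraries. The ethanol libraries thus lay on both sides of the control range, and their coefficient of variation was 41.9% against 11.2% in controls. Its log2 fold change was 0.11 ± 0.30 (SE, 95% interval -0.59 to 0.81) and did not pass (edgeR, adjusted p = 0.782), and it turned to -0.21 without ethanol replicate 2, to -0.54 with library size alone and to -0.47 by limma on log2(FPKM + 1). Without ethanol replicate 3 it was 0.41 (edgeR, adjusted p = 0.0449).

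Irs2 (ENSMUSG00000038894, chromosome 8, 11034681 to 11058458, minus strand) measured 82.8, 114 and 61.7 CPM in ethanol and 46.0, 59.8 and 66.3 CPM in control libraries. Ethanol replicates 1 and 2 lay above every control library, whereas ethanol replicate 3 fell within the control range. The log2 fold change of 0.59 ± 0.24 (SE, 95% interval 0.03 to 1.15) did not pass after adjustment (edgeR, unadjusted p = 0.0427, adjusted p = 0.0847), passed the adjusted p without ethanol replicate 3 at 0.79 (edgeR, adjusted p = 0.00957) and with the length trend removed at 0.78 (edgeR, adjusted p = 0.0394), and was -0.07 with library size alone and -0.10 by limma on log2(FPKM + 1). Relative to the median of all genes under each setting, the difference ran over the 16 alternatives from 0.17 to 0.87 for Irs2, was at least 0.25 for Foxo3, and lay on both sides of 0 for Irs1 (-0.20 to 0.49), Akt1 (-0.06 to 0.49) and Pik3ca (-0.02 to 0.43).

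Pik3r1 encodes p85α, the regulatory subunit through which PI3K binds the IRS adaptors. Its transcript (ENSMUSG00000041417, chromosome 13, 101817071 to 101904725, minus strand) measured 92.3, 89.6 and 138 CPM in ethanol and 39.4, 39.0 and 37.4 CPM in control libraries. Every ethanol library exceeded every control library by a wide margin, and the controls were nearly equal, with a coefficient of variation of 2.76%. Pik3r1 rose 2.76-fold, with a log2 fold change of 1.47 ± 0.18 (SE) (edgeR's quasi-likelihood test, adjusted p = 0.00104). Ethanol replicate 3 was the highest library, and without it the log2 fold change was 1.25. With library size alone it was 0.79 (edgeR, adjusted p = 0.00534), which kept the direction but fell short of the fold threshold. Its catalytic partner Pik3ca (p110α) measured 29.4, 29.1 and 25.7 CPM in ethanol and 25.0, 20.8 and 24.1 CPM in control libraries, a log2 fold change of 0.27 that did not pass (edgeR, adjusted p = 0.102). It passed the adjusted p downwards with library size alone at -0.40 (edgeR, adjusted p = 0.0356), where the median of all genes was -0.71 and Pik3ca lay 0.31 above it, as it did with TMM scaling. It passed upwards with the length trend removed at 0.46 (edgeR, adjusted p = 0.0160) and without ethanol replicate 3 at 0.34 (edgeR, adjusted p = 0.0240).

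Akt1 and Akt2 encode the kinases that act downstream of PI3K, of which AKT2 is the form most closely tied to insulin action in liver. Akt1 (ENSMUSG00000001729, chromosome 12, 112620255 to 112641318, minus strand) measured 34.4, 39.5 and 48.7 CPM in ethanol and 31.6, 34.3 and 32.6 CPM in control libraries. The groups did not overlap, but ethanol replicate 1 exceeded control replicate 2 by only a small step. Its log2 fold change of 0.32 ± 0.14 (SE, 95% interval -0.02 to 0.65) did not pass (edgeR, adjusted p = 0.110), and it was -0.35 with library size alone and -0.33 by limma on log2(FPKM + 1). It passed the adjusted p without ethanol replicate 1, at 0.42 (edgeR, adjusted p = 0.0495), and with the length trend removed, at 0.48 (edgeR, adjusted p = 0.0225).

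Akt2 (ENSMUSG00000004056, chromosome 7, 27290977 to 27340251, plus strand) was the steadiest of the 10 genes among ethanol libraries, at 53.1, 53.2 and 53.4 CPM. Control libraries measured 72.2, 70.0 and 63.7 CPM, and all lay above the ethanol libraries. Akt2 fell by 0.37 ± 0.09 (SE) on the log2 scale (edgeR's quasi-likelihood test, adjusted p = 0.0186), which passed the adjusted p and not the fold threshold. The call was lost without ethanol replicate 1, control replicate 1 or control replicate 2, with edgeR adjusted p values of 0.0501, 0.0679 and 0.0781, while the log2 fold change itself was -0.42 to -0.33 over the 6 libraries left out in turn. The decrease was -1.04 with library size alone and -0.17 with the trend of fold change with transcript length removed, where it did not pass (edgeR, adjusted p = 0.182).

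Foxo1 and Foxo3 encode the main FoxO factors of liver. Foxo1 (ENSMUSG00000044167, chromosome 3, 52175757 to 52260642, plus strand) measured 73.5, 74.3 and 88.7 CPM in ethanol and 27.7, 20.8 and 21.8 CPM in control libraries. The lowest ethanol library was thus well above the highest control library. Foxo1 rose 3.36-fold, with a log2 fold change of 1.75 ± 0.15 (SE) (edgeR's quasi-likelihood test, adjusted p = 0.000263), and it passed by adjusted p in all 16 alternatives, with log2 fold changes of 0.89 to 1.94. Only by limma on log2(FPKM + 1) did it stay under the fold threshold.

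Foxo3 (ENSMUSG00000048756, chromosome 10, 42057837 to 42152748, minus strand) measured 49.8, 69.1 and 26.2 CPM in ethanol and 33.5, 26.7 and 27.4 CPM in control libraries. Ethanol replicates 1 and 2 were above every control library and ethanol replicate 3 was below every one. Its log2 fold change of 0.73 ± 0.32 (SE, 95% interval -0.02 to 1.48) did not pass (edgeR, adjusted p = 0.103), reached 1.04 without ethanol replicate 3 (edgeR, adjusted p = 0.00103), and was 0.08 with library size alone and -0.02 by limma on log2(FPKM + 1). Another FoxO gene, Foxo4, fell by 0.87 ± 0.20 (SE) on the log2 scale, from 18.9, 18.5 and 15.1 CPM in control to 9.99, 11.6 and 7.15 CPM in ethanol libraries (edgeR's quasi-likelihood test, adjusted p = 0.0117). This passed the adjusted p and not the fold threshold, and both were passed in 4 of the 16 alternatives.

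Igfbp1 encodes a secreted liver protein that binds insulin-like growth factors and is among the best known FoxO target genes. It was the most abundant of the 10 transcripts in both groups and showed the largest change among them. It measured 3401, 3836 and 1632 CPM in ethanol and 222, 229 and 235 CPM in control libraries (ENSMUSG00000020429, chromosome 11, 7147782 to 7152546, plus strand). All ethanol libraries were several times above the controls, and ethanol replicate 3 was the lowest of them, at 0.451 times the mean of ethanol replicates 1 and 2. Igfbp1 rose 12.9-fold, with a log2 fold change of 3.69 ± 0.32 (SE) (edgeR's quasi-likelihood test, adjusted p = 0.000294). It passed both thresholds in all 16 alternatives, at log2 fold changes of 2.92 to 3.99.

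Sesn1 encodes sestrin 1, a stress-induced protein that restrains mTORC1 and is transcribed under FoxO factors and p53. It measured 39.4, 45.9 and 15.4 CPM in ethanol and 10.9, 10.9 and 10.8 CPM in control libraries (ENSMUSG00000038332, chromosome 10, 41685931 to 41784420, plus strand). Control libraries were almost equal, with a coefficient of variation of 0.339%, whereas it was 47.9% in ethanol libraries because ethanol replicate 3 lay close to the controls. On the FPKM scale ethanol replicate 3, at 2.769, lay below every control library (3.195 to 3.222). Sesn1 rose 3.09-fold, with a log2 fold change of 1.63 ± 0.36 (SE) (edgeR's quasi-likelihood test, adjusted p = 0.0107), and of 1.34 to 1.99 when each library was left out. With library size alone it was 0.98 and did not pass (edgeR, adjusted p = 0.0599), nor did it by limma on log2(FPKM + 1), at 0.68 (limma, adjusted p = 0.124). Of its family, Sesn3 fell by 0.96 ± 0.16 (SE) on the log2 scale, from 25.0, 23.8 and 25.3 CPM in control to 13.0, 15.1 and 9.88 CPM in ethanol libraries (edgeR's quasi-likelihood test, adjusted p = 0.00370), which passed the adjusted p and not the fold threshold, and both in 4 of the 16 alternatives.

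**Figure D2:**
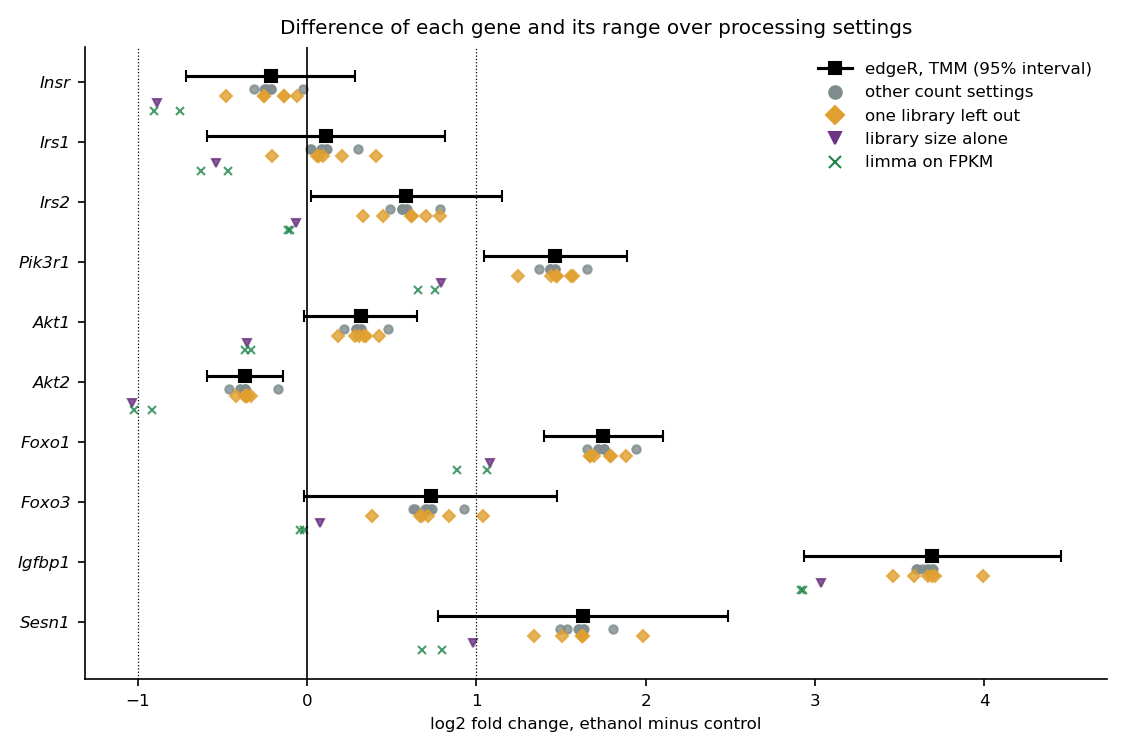
Log2 fold change (ethanol minus control, horizontal axis) of each gene by edgeR with TMM scaling (black squares, bars 95% intervals) and under the 16 alternatives (coloured markers), with dotted lines at the fold threshold of 1 in either direction. Igfbp1, Foxo1, Pik3r1 and Sesn1 lie above 0 under every setting, Akt2 and Insr below 0, and Irs1, Irs2, Akt1 and Foxo3 lie on both sides of 0, the negative values coming from library size alone, limma on FPKM or, for Irs1, also from leaving out ethanol replicate 2.

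The spread among ethanol libraries was wider than among controls for most of these genes. The median coefficient of variation of the 10 genes was 30.7% in ethanol and 7.85% in control libraries, and over all genes tested it was 23.7% and 11.6%. Ethanol replicate 3 was the lowest ethanol library for Irs1, Irs2, Foxo3, Igfbp1 and Sesn1 and the highest for Insr, Pik3r1, Akt1, Akt2 and Foxo1, although for Akt2 the ethanol libraries were nearly equal. The ratio of replicate 3 to the mean of replicates 1 and 2 ran from 0.361 for Sesn1 to 1.64 for Insr. Left out, it brought Insr, Irs1, Irs2 and Foxo3 past the adjusted p, so that 7 of the 10 genes were higher and 2 lower by the adjusted p alone, beside 24.7% and 27.4% of all genes tested without it. The 4 genes that rose past both thresholds did so with and without this library.

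**Figure D3:**
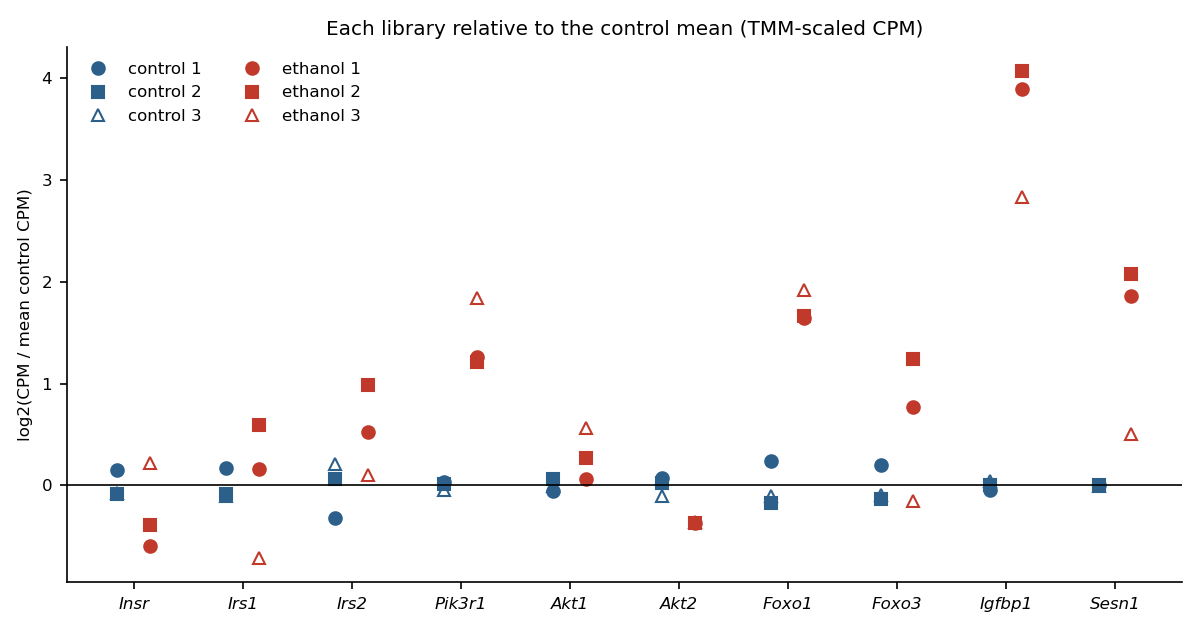
Log2 ratio of the TMM-scaled CPM of each library to the mean of the 3 control libraries (vertical axis) for the 10 genes, with controls in blue, ethanol libraries in red and replicate 3 drawn as open triangles. Ethanol replicate 3 falls within or below the control range for Irs1, Irs2 and Foxo3 and is the ethanol library farthest above the controls for Pik3r1, Akt1 and Foxo1.

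Levels per transcript length were compared by FPKM. In control libraries the order of group means was Igfbp1 (177 ± 4.46, SD, n = 3), Akt2 (11.4 ± 0.757), Irs2 (10.7 ± 1.91), Akt1 (9.44 ± 0.386), Insr (6.30 ± 0.603), Foxo3 (4.54 ± 0.596), Pik3r1 (4.51 ± 0.136), Irs1 (3.92 ± 0.449), Sesn1 (3.21 ± 0.0152) and Foxo1 (3.19 ± 0.517). Neighbours whose library values overlapped, and which therefore have no settled order, were Akt2 with Irs2, Irs2 with Akt1, Foxo3 with Pik3r1, Pik3r1 with Irs1, and Sesn1 with Foxo1. In ethanol libraries Igfbp1 again led at 1449 ± 615 FPKM, and Irs2 (10.2 ± 3.59), Pik3r1 (7.80 ± 1.76), Akt1 (7.37 ± 1.22), Foxo1 (6.72 ± 0.595), Sesn1 (6.31 ± 3.20), Akt2 (5.53 ± 0.257), Foxo3 (4.79 ± 2.32), Insr (3.40 ± 0.970) and Irs1 (2.69 ± 1.23) followed. There, all 8 neighbouring pairs below Igfbp1 overlapped. In controls Foxo1 and Pik3r1 thus ranked below Insr without any overlap, and in ethanol libraries both ranked above it, again without overlap.

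A ratio of 2 genes within a library does not depend on the scaling between libraries, and was compared for 6 pairs of related genes. With 3 libraries against 3 the exact permutation test cannot go below p = 0.1, before or after adjustment over the 6 pairs, so no pair could reach significance. The smallest adjusted p that this test gave was 0.12. The Akt1 to Akt2 ratio of FPKM was 1.13, 1.29 and 1.59 in ethanol and 0.760, 0.852 and 0.890 in control libraries. Akt2 was thus the more abundant of the 2 in every control library and Akt1 in every ethanol library, with a difference in mean log2 ratio of 0.67 (exact two-sided permutation test, p = 0.1, adjusted p = 0.12). The Foxo1 to Foxo3 ratio was 1.29, 0.940 and 2.96 in ethanol and 0.724, 0.683 and 0.695 in control libraries. Foxo1 stood higher relative to Foxo3 in every ethanol library, and the log2 difference of 1.13 (exact permutation test, p = 0.1, adjusted p = 0.12) was 0.65 without ethanol replicate 3.

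The ratio of regulatory to catalytic PI3K transcripts, Pik3r1 to Pik3ca, was 2.83, 2.77 and 4.85 in ethanol and 1.42, 1.70 and 1.40 in control libraries. The groups did not overlap, with a log2 difference of 1.17 (exact permutation test, p = 0.1, adjusted p = 0.12). The Irs2 to Irs1 ratio was 3.52, 3.59 and 4.83 in ethanol and 1.94, 3.02 and 3.40 in control libraries, where the highest control came close to the lowest ethanol library. That log2 difference was 0.54 (exact permutation test, p = 0.1, adjusted p = 0.12) and 0.30 without control replicate 1. Igfbp1 exceeded Igfbp2, another abundant binding protein of liver, in every ethanol library, at 3.27, 4.62 and 2.43 times, and was below it in every control library, at 0.468, 0.755 and 0.711 times. The log2 difference was 2.40 (exact permutation test, p = 0.1, adjusted p = 0.12). The Sesn1 to Sesn2 ratio was 2.80, 3.62 and 1.36 in ethanol and 1.5, 1.04 and 1.17 in control libraries. These groups overlapped, because ethanol replicate 3 lay below control replicate 1 (log2 difference 0.98, exact permutation test, p = 0.2, adjusted p = 0.2).

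**Figure D4:**
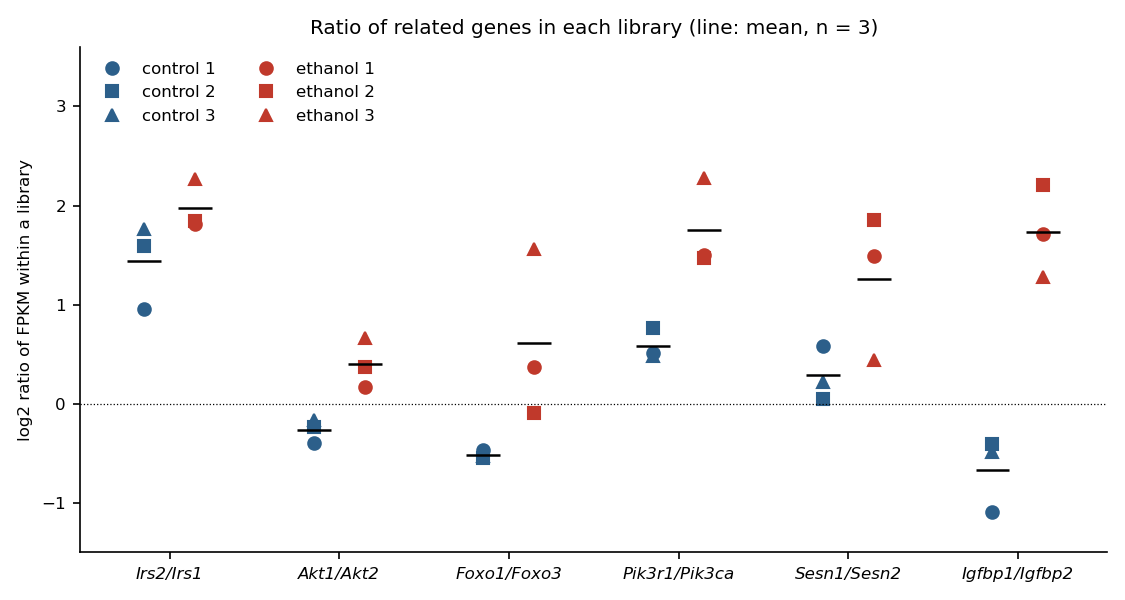
Log2 ratio of FPKM (vertical axis) between the 2 genes of each pair in each control (blue) and ethanol (red) library, with marker shape giving the replicate number and lines the group means. The groups are apart for 5 of the 6 pairs and overlap for Sesn1 to Sesn2, and the Akt1 to Akt2 and Igfbp1 to Igfbp2 ratios lie below 0 in every control library and above 0 in every ethanol library.

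Genes of the wider pathway, the 10 followed here included, were counted in 9 lists, with 128 of their 131 genes tested. The lists were chosen with earlier results of these data known, so their counts are descriptions and no independent test. Each count past both thresholds is read against all genes tested, of which 10.4% rose and 13.8% fell with TMM scaling, and 5.06% rose and 32.2% fell with library size alone. Around the receptor, the 3 tested receptors of insulin and IGFs gave no call. Of 19 adaptors and inhibitors of the receptor, Irs1 and Irs2 included, 6 rose and 1 fell past both thresholds (10.4% and 13.8% of all genes), with a median log2 fold change of 0.50. Scaled by library size alone, 4 rose and 2 fell (5.06% and 32.2%). Among those past both thresholds, the 4 largest rises were those of Socs3, Grb10, Cblb and Ptpn2. Socs3, a feedback inhibitor of cytokine signaling, measured 140, 122 and 143 CPM in ethanol and 3.39, 6.84 and 6.46 CPM in control libraries, a log2 fold change of 4.60 ± 0.29 (SE) (edgeR, adjusted p = 9.88e-05). Grb10 rose by 2.65, Cblb by 2.27 and Ptpn2 by 1.91 on the log2 scale (edgeR, adjusted p = 0.00868, 0.00217 and 0.00137), of which Grb10 did not pass by limma on log2(FPKM + 1), at 0.75 (limma, adjusted p = 0.0647). Ptprf, a receptor-type tyrosine phosphatase, fell by 1.21 (edgeR, adjusted p = 0.000576).

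Of 13 PI3K subunits and lipid phosphatases, 2 rose past both thresholds, Pik3r1 and Pik3ip1, and none fell, beside 10.4% and 13.8% of all genes. The counts became 1 higher and 4 lower with library size alone, beside 5.06% and 32.2% of all genes. With upper quartile factors and by DESeq2, 2 fell, beside 15.6% and 10.45% of all genes. Pik3ip1, an inhibitor of PI3K, was low in all libraries, at 3.15, 1.82 and 2.62 CPM in ethanol and 0.0426, 0.525 and 0.389 CPM in control libraries, with a log2 fold change of 3.0 ± 0.74 (SE) (edgeR, adjusted p = 0.0154, or 0.0541 without control replicate 3). Of 17 AKT kinases and regulators, 2 rose and 1 fell (10.4% and 13.8% of all genes), and with library size alone 1 rose and 5 fell (5.06% and 32.2%). Trib1, a pseudokinase known in liver for lipid metabolism, rose by 2.62 ± 0.36 (SE) on the log2 scale (edgeR, adjusted p = 0.00155), with 232, 280 and 98.4 CPM in ethanol and 33.6, 33.6 and 32.1 CPM in control libraries. Ethanol replicate 3 was again the lowest ethanol library. Trib2 (1.09) and Tbc1d4 (-1.05) were the other 2 calls (edgeR, adjusted p = 0.0301 and 0.0343). Trib2 passed both thresholds in 6 of the 16 alternatives. Its adjusted p was lost without any 1 of the control libraries (edgeR, up to 0.108) and with library size alone, where the log2 fold change was 0.41 (edgeR, adjusted p = 0.297), and without ethanol replicate 3 it was 0.76, under the fold threshold. Tbc1d4 passed both in 8 of the 16, and its adjusted p was lost without any 1 library other than ethanol replicate 2 (edgeR, up to 0.110).

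In the mTORC1 arm, to which Sesn1 belongs, 4 of 21 genes rose and 1 fell past both thresholds (10.4% and 13.8% of all genes), and by the adjusted p alone 6 rose and 9 fell (21.5% and 21.5%), with a median of -0.25. Past both thresholds, 2 rose and 10 fell with library size alone (5.06% and 32.2% of all genes). The genes that rose were Ddit4 (3.54), Castor1 (2.01), Eif4ebp1 (1.67) and Sesn1 (1.63), and the gene that fell was Mlst8 (-2.29), which encodes a subunit shared by both mTOR complexes. Sesn3, which like Sesn1 encodes a sestrin, was among the genes that fell by the adjusted p alone. For the genes past both thresholds, edgeR adjusted p values lay between 0.000191 and 0.0107. With each library left out in turn, Ddit4 ran from 2.806 to 3.873 and Mlst8 from -2.949 to -1.975. Eif4ebp1 passed both thresholds in 13 of the 16 alternatives and was 0.99 with library size alone. Unlike Sesn1, Ddit4 was highest in ethanol replicate 3, at 70.0, 44.4 and 173 CPM in ethanol and 10.1, 7.76 and 6.86 CPM in control libraries.

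Of 15 tested FoxO factors and modifiers, 2 rose, Foxo1 and Fbxo32, and 1 fell, Skp2, which encodes a ubiquitin ligase subunit known to promote FoxO1 degradation. These counts lay near the 10.4% and 13.8% of all genes. The counts were 1 higher and 4 lower with library size alone, near the 5.06% and 32.2% there. Skp2 fell by 1.59 ± 0.34 (SE) on the log2 scale, from 2.52, 3.31 and 2.45 CPM in control to 0.834, 1.31 and 0.605 CPM in ethanol libraries (edgeR, adjusted p = 0.00935). Fbxo32, which encodes a muscle-atrophy ubiquitin ligase subunit, rose by 1.05 ± 0.23 (SE) (edgeR, adjusted p = 0.00990). It passed both thresholds in 8 of the 16 alternatives, and with library size alone it was 0.37 (edgeR, adjusted p = 0.197).

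Of 27 known FoxO target genes of liver, Igfbp1, Sesn1, Irs2 and Insr among them, 13 rose and 2 fell past both thresholds, beside 10.4% and 13.8% of all genes, with a median log2 fold change of 0.86. Scaled by library size alone, 8 rose and 4 fell, beside 5.06% and 32.2%. This list, too, was chosen with earlier results of these data known. The largest rises were those of Gadd45b, Gadd45a and Cdkn1a, which encode proteins of growth arrest and DNA damage and are known targets of p53 and other stress factors as well, followed by Igfbp1. Gadd45b measured 284, 327 and 50.5 CPM in ethanol and 0.820, 1.42 and 1.21 CPM in control libraries, a log2 fold change of 7.59 ± 0.80 (SE) (edgeR, adjusted p = 0.000586). Cdkn1a measured 265, 264 and 353 CPM in ethanol and 11.9, 16.9 and 15.4 CPM in control libraries, a log2 fold change of 4.32 ± 0.20 (SE) (edgeR, adjusted p = 5.61e-05). Gadd45a rose by 7.34 ± 0.85 (SE) (edgeR, adjusted p = 0.000828), and an antisense gene with 46 to 296 counts per library overlaps it.

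Of the same list, G6pc1, the catalytic subunit of glucose-6-phosphatase, fell by 2.89 ± 0.50 (SE) on the log2 scale, from 768, 940 and 929 CPM in control to 152, 165 and 39.7 CPM in ethanol libraries (edgeR, adjusted p = 0.00374). Pck1, which encodes the gluconeogenic enzyme phosphoenolpyruvate carboxykinase and was singled out after its values were seen, measured 4521, 5248 and 2377 CPM in ethanol and 2124, 1972 and 1872 CPM in control libraries. It rose by 1.03 ± 0.28 (SE) (edgeR, adjusted p = 0.0213), and its adjusted p no longer passed in 8 of the 16 alternatives, among them the removal of any 1 library other than ethanol replicate 3. It passed both thresholds in 5 of the 16. Bcl6, a transcriptional repressor, was the other gene that fell (-1.06, edgeR, adjusted p = 0.00920). Its adjusted p passed in all 16 alternatives and both thresholds in 13, with log2 fold changes of -1.72 to -0.81. Of 10 genes known to be induced by insulin in liver, none rose and 1 fell past both thresholds (10.4% and 13.8% of all genes), Acly, which encodes ATP citrate lyase (-1.33, edgeR, adjusted p = 0.0319). By library size alone none rose and 5 fell (5.06% and 32.2% of all genes), and with the length trend removed 1 rose and none fell (11.4% and 11.5%). Acly passed both thresholds in 10 of the 16 alternatives. Its adjusted p was lost without ethanol replicate 1 or any 1 of the control libraries (edgeR, 0.0547 to 0.112) and with the length trend removed (edgeR, adjusted p = 0.0580), and without ethanol replicate 3 the log2 fold change was -0.99, under the fold threshold.

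Among 9 tested genes of the IGF-binding protein family and IGF axis, 3 rose and 1 fell (10.4% and 13.8% of all genes), and with library size alone 1 rose and 2 fell (5.06% and 32.2%). Igfbp2 measured 1259, 1007 and 812 CPM in ethanol and 576, 367 and 400 CPM in control libraries, and Igfbp4 measured 1322, 1341 and 1429 CPM against 631, 647 and 625 CPM. Both rose, by 1.2 ± 0.23 and 1.11 ± 0.10 on the log2 scale (SE, edgeR, adjusted p = 0.00556 and 0.000356). Igfbp2 was 0.53 with library size alone and did not pass (edgeR, adjusted p = 0.0865), and there Igfbp4 was 0.44, under the fold threshold (edgeR, adjusted p = 0.0106). Igfbp5, which was low, fell by 2.03 ± 0.28 (SE), from 7.51, 6.06 and 5.87 CPM to 1.04, 1.88 and 1.83 CPM (edgeR, adjusted p = 0.00156).

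**Figure D5:**
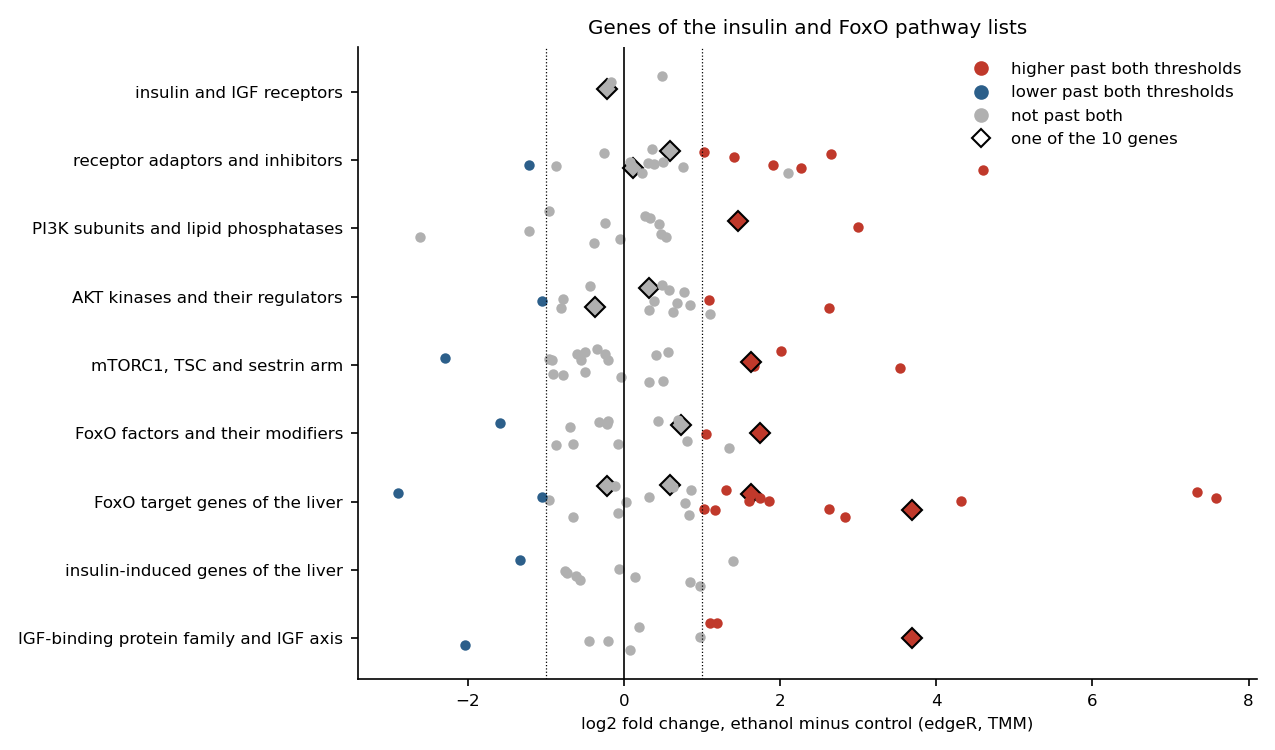
Log2 fold change (ethanol minus control, edgeR with TMM scaling, horizontal axis) of every tested gene of the 9 lists, 1 point a gene with vertical jitter, coloured by whether it passed both thresholds, with the 10 genes followed here drawn as diamonds and dotted lines at 1 in either direction. The FoxO target list holds 13 of 27 genes higher and 2 lower, and the insulin-induced list 0 of 10 higher and 1 lower. Over all genes tested, 10.4% were higher and 13.8% lower past both thresholds.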

How the data were processed

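The authors extracted liver RNA with TRIzol and sequenced it as paired reads of 150 bp, and then removed adaptors and reads of low quality or with ambiguous bases. The deposited table holds, per Ensembl gene and library, an unnormalized count of reads as a whole number, and beside it the FPKM that the authors computed. Aligner, counter and strandedness are not given in the sources used here, so genes overlapping another on the genome are uncertain. The submitters' processing notes name GRCm38 and mm10, but the table's coordinates, printed here as deposited, matched the GRCm38 start and end for 0 of the 10 genes. Only those of Insr and Irs1 overlapped the GRCm38 position of the gene at all. The deposited positions and the promoter windows are therefore not on the same coordinates. The table held 1 further column of counts, which matches no library and was not used.

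Analyses ran in R 4.3.3. Genes kept by filterByExpr were compared, without covariates, by edgeR 4.0.16's two-sided quasi-likelihood test on TMM-scaled counts, with Benjamini-Hochberg adjustment over the 16717 genes tested. The study's thresholds were used, and its test is not named. limma 3.58.1 and DESeq2 1.42.0 served as alternatives, as did other scalings, filters and pseudocounts, removal of the trend with transcript length, a replicate block and each library left out. Ratios within libraries used exact permutation tests. Totals were 60514417 to 74210869 counts per library, with 3 mice per group. The code was tested on simulated data. Promoters came from RefSeq (GRCm38.p6), and transcript length was taken from the ratio of count to FPKM.

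The 10 genes, the lists, the pairs and the markers were chosen with earlier results of these data known. Named genes are the 10 genes, those of the pairs, Foxo4 and Sesn3 as relatives, and, of each list, at most 4 per direction by fold change among genes past both thresholds whose groups did not overlap. Marker lists of 11 cell types were examined, and those of T or NK cells, adipocytes or muscle and pancreas summed to under 1 CPM in every library. B cell markers summed to 0.638 to 1.29 CPM in ethanol and 1.89 to 2.24 CPM in control libraries. Of these, Ms4a1 and Bank1 were lower past both thresholds, by 3.54 and 2.63 on the log2 scale (edgeR, adjusted p = 0.038 and 0.012). Kupffer cell (84.3 to 113 against 107 to 115 CPM), endothelial (68.9 to 128 against 78.2 to 88.7 CPM), stellate (131 to 161 against 112 to 126 CPM) and cholangiocyte markers (57.6 to 75.0 against 31.7 to 73.2 CPM) made up the rest. These sums hide single markers that differed past both thresholds, with log2 fold changes of 3.59 for Lyve1 and -1.57 for Kdr (endothelial) and 2.78 for Sox9 (cholangiocyte).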

Additional observations from a re-analysis of the deposited data

How the results depend on the processing

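Each group held 3 mice. Of the counts over the 10 genes, 49 of 64 values under the alternatives lay within 1.5 times the TMM-scaled edgeR count. With library size alone, 2 genes passed both thresholds upwards and 1 downwards (5.06% and 32.2% of all genes), and 2 were lower by the adjusted p alone (48.3%). By limma on log2(FPKM + 1), 1 passed upwards (2.44% of all genes) and 2 were lower by the adjusted p alone (51.7%). On log2(FPKM + 0.1), 2 passed upwards and 1 downwards (4.40% and 29.7%), and 2 were lower by the adjusted p alone (51.9%). With the length trend removed, 0 were lower by the adjusted p alone (18.0%). With each library left out, 4 to 5 genes passed both thresholds upwards, beside 8.57% to 10.9% of all genes. By the adjusted p alone, 4 to 7 were then higher and 0 to 2 lower, beside 14.5% to 24.7% and 13.5% to 27.4%. Replicate numbers did not pair the libraries, since same-numbered deviations correlated at -0.04, -0.03 and -0.01. With a replicate block, 4 genes passed both thresholds upwards (9.08% of all genes). There, 0 were lower by the adjusted p alone (17.3% of all genes), because Akt2 was lost (edgeR, adjusted p = 0.0646). The paired exact test of the ratios gave p = 0.25, the smallest it allows.

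Directions turned as follows. With library size alone the log2 fold changes were -0.54 for Irs1, -0.067 for Irs2, -0.35 for Akt1, -0.40 for Pik3ca and -0.17 for Sesn2. By limma on log2(FPKM + 1) they were -0.47 for Irs1, -0.10 for Irs2, -0.33 for Akt1, -0.017 for Foxo3, -0.29 for Pik3ca and -0.12 for Sesn2. By limma on log2(FPKM + 0.1) they were -0.63, -0.11, -0.37, -0.041, -0.39 and -0.16 in the same order. Over the 6 libraries left out in turn Irs1 ran from -0.21 (without ethanol replicate 2) to 0.41 (without ethanol replicate 3). None of these genes had passed with TMM scaling. The median of all genes was -0.71 with library size alone and -0.14 with upper quartile scaling, shifts that these differences share by construction. It was -0.27 and -0.58 by limma with pseudocounts of 1 and 0.1, where the shift was not the same for every gene. Relative to the median by limma on log2(FPKM + 1), Irs1 was -0.20, Akt1 -0.06 and Pik3ca -0.02. Irs2, Foxo3 and Sesn2 lay above it, at 0.17, 0.25 and 0.15. On log2(FPKM + 0.1), Irs1 was -0.04 and the others lay above the median. The 6 ratios, which need no scaling, moved in all 48 alternatives by less than the SD pooled over both groups. For Foxo1 to Foxo3 that SD rests on the ethanol libraries (0.855, against 0.0426 in controls), and the log2 difference was 1.13 with and 0.65 without ethanol replicate 3. Of 288 list counts, 80 moved by over 1.5 times.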

Other observations

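The table's own KEGG annotation, examined after the other results were known, gave a wider view of the same pathways. Of 125 tested genes of the insulin signaling pathway, 19 rose and 7 fell past both thresholds, with a median log2 fold change of 0.23. Of 117 tested genes of the FoxO signaling pathway, 26 rose and 10 fell, with a median of 0.24. Over all genes tested, 10.4% rose and 13.8% fell by the same rule. Outside the lists described above, the largest change in the insulin pathway was that of Socs2, a suppressor of cytokine and growth hormone signaling, at a log2 fold change of 4.88 ± 0.38 (SE) (edgeR, adjusted p = 0.000198). In the FoxO pathway it was that of Gadd45g, a relative of Gadd45a and Gadd45b, at 4.07 ± 0.34 (SE) (edgeR, adjusted p = 0.000243). Of the genes for AMPK subunits, which belong to both pathways, Prkab1 rose by 1.74 ± 0.20 and Prkag3 by 3.06 ± 0.50, while Prkaa1 fell by 1.31 ± 0.27 on the log2 scale (SE, edgeR, adjusted p = 0.000862, 0.00310 and 0.00719). The other 4, Prkaa2, Prkab2, Prkag1 and Prkag2, did not pass both thresholds. These genes were named after their values were seen.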
